A study of Mus musculus with 10 samples.

Results

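Homeobox genes encode transcription factors that bind DNA through a homeodomain, and many of them mark where in the brain a cell arose. The genes described here are the rows of a striatal expression table whose names begin with Hoxa, Hoxb, Hoxc, Hoxd, Dlx, Lhx, Isl, Nkx, Otx, Pax, Irx, Meis, Pbx, Evx, Msx, Emx or Pitx and a number, or belong to the family of Six3, leaving out Lhx6, Lhx8, Lhx9 and Nkx2-1. They were 63 of the 21230 genes in the table. Of these, 58 code for protein and 5 are antisense or neighbouring transcripts named after a homeobox gene (Dlx1as, Dlx6os1, Six3os1, Pax6os1 and Otx2os1). Among the listed genes the choice went by name, and it was made with earlier results of these data known. In the annotation 112 names fit the rule, but every gene in the table had at least 6 reads in its highest library. RNA came from small pieces punched out of the striatum of BACHD mice, heterozygous FVB/N mice of either sex that carry a full-length human mutant huntingtin gene beside their own Htt. All mice were about 3 months old when an osmotic pump was placed under the skin. Pumps delivered either SPI-24, an inhibitor of the Spt5-Pol II complex, or its vehicle for 8 weeks. The vehicle was DMSO mixed with PEG400, and the control group is labelled DMSO. Each group had 5 libraries, labelled as separate biological replicates, and no library came from mice without the transgene. The comparison asks how gene expression in the striatum differed after long treatment with SPI-24.

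In the developing brain these genes act in a head-to-tail order. Dlx, Isl1, Meis2 and Six3 belong to the ventral forebrain that gives rise to the striatum, Emx and Lhx2 to the cortex, Irx and Otx2 to the thalamus and midbrain, and Hox, Evx and Pax2/5/8 to the midbrain-hindbrain junction, the hindbrain and the spinal cord. Several stay on in adult neurons, while Msx1 and Otx2 are also known in the roof plate and the choroid plexus, the tissue that secretes cerebrospinal fluid. In bulk tissue, fewer cells of a type and less RNA per cell cannot be told apart.

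The values are normalized counts, that is reads divided by a size factor of each library, and the reads could be recovered from them. The libraries held 5.48 to 46.9 M reads, with DMSO replicate 3 (5.48 M), SPI-24 replicate 2 (7.38 M) and SPI-24 replicate 5 (10.1 M) the shallowest. They also differed in what tissue they held. The mean log2 level of 12 markers of medium spiny neurons, the main projection cells of the striatum, was 12.31 in DMSO replicate 1, 11.22 in DMSO replicate 4, 10.77 in SPI-24 replicate 2 and 12.44 in SPI-24 replicate 5, against 5.39 to 8.04 in the other 6 libraries. In DMSO replicate 3 the markers Drd1, Adora2a, Tac1 and Gpr6 were listed at 0, so its striatal label was not borne out by these genes, and Adora2a was at 0 in SPI-24 replicate 4 as well. The level of 7 choroid plexus markers ran from 3.73 to 10.95 under DMSO and from 4.55 to 9.06 under SPI-24. The difference of group means (SPI-24 minus DMSO) was -0.01 for the medium spiny neuron markers, against a range of 6.92 within DMSO. It was -0.99 for choroid plexus, -1.41 for ependymal, -1.10 for hypothalamic, -0.81 for interneuron and 1.01 for thalamic markers, where the ranges within DMSO were 7.22, 5.79, 4.65, 1.72 and 4.96.

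The libraries listed very different numbers of these regional genes. Of the 63 members, DMSO replicates 1 to 5 had reads for 28, 32, 21, 33 and 52, and SPI-24 replicates 1 to 5 for 39, 24, 40, 42 and 25. The groups overlapped, and DMSO replicate 5, the deepest library, stood above all others. Thinned to the depth of the shallowest library, the expected numbers were 27.8, 32.0, 21.0, 32.9 and 50.8 under DMSO and 37.2, 24, 39.3, 41.3 and 24.8 under SPI-24, so DMSO replicate 5 stayed the highest and DMSO replicate 3 the lowest. The same held over all genes, with reads for 18148 genes in DMSO replicate 5 and 12027 in DMSO replicate 3. After thinning these were 17556 and 12027, against 13151 to 16904 in the other libraries. Members were 0.287% of the listed genes in DMSO replicate 5 and 0.175% in DMSO replicate 3, the highest and lowest shares. Members with reads in every library numbered 15, while 12 had reads in a single library, and in 7 of those 12 it was DMSO replicate 5. For 30 members more than 50% of all normalized counts came from 1 library, which was DMSO replicate 5 for 13 of them.

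**Figure D1:**
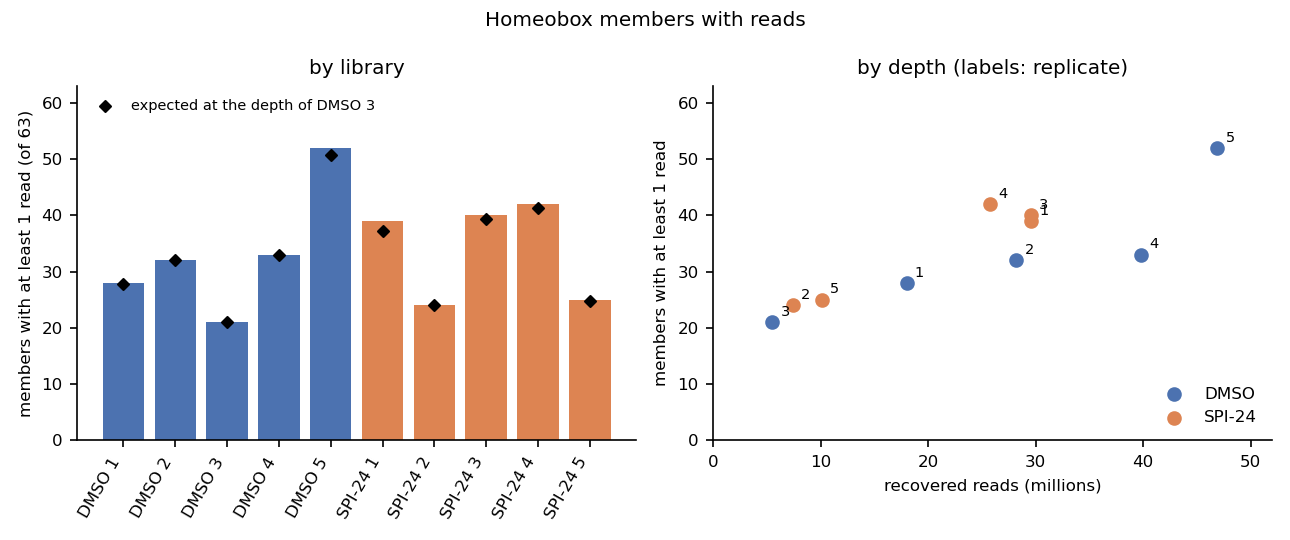
Number of the 63 members with at least 1 read in each library, as bars (left; diamonds give the number expected at the depth of DMSO replicate 3) and against recovered reads in M (right; 1 point a library). DMSO replicate 5 had reads for 52 members and 50.8 were expected after thinning, while the other DMSO libraries had 21 to 33. Over all genes, DMSO replicate 5 also had reads for the most, 18148.

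Levels of different genes were set side by side only per kilobase of exon. On this scale the highest members named here were Pbx2 with 342 normalized counts per kb, the oligodendrocyte gene Nkx6-2 with 318, Meis3 with 165 and Meis2 with 148. Pbx and Meis proteins are cofactors that bind DNA together with Hox and other homeodomain proteins. Lhx2, Pbx3, Six3 and Dlx6 followed at 99.8, 86.6, 78.7 and 70.9 normalized counts per kb. Across the libraries the level of Meis2 had an SD larger than its mean within SPI-24, so its place beside Meis3 is not fixed by these data. Of the hindbrain and spinal cord members, Evx2, Evx1 and Pax5 stood at 3.30, 2.97 and 2.66 normalized counts per kb.

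**Figure D2:**
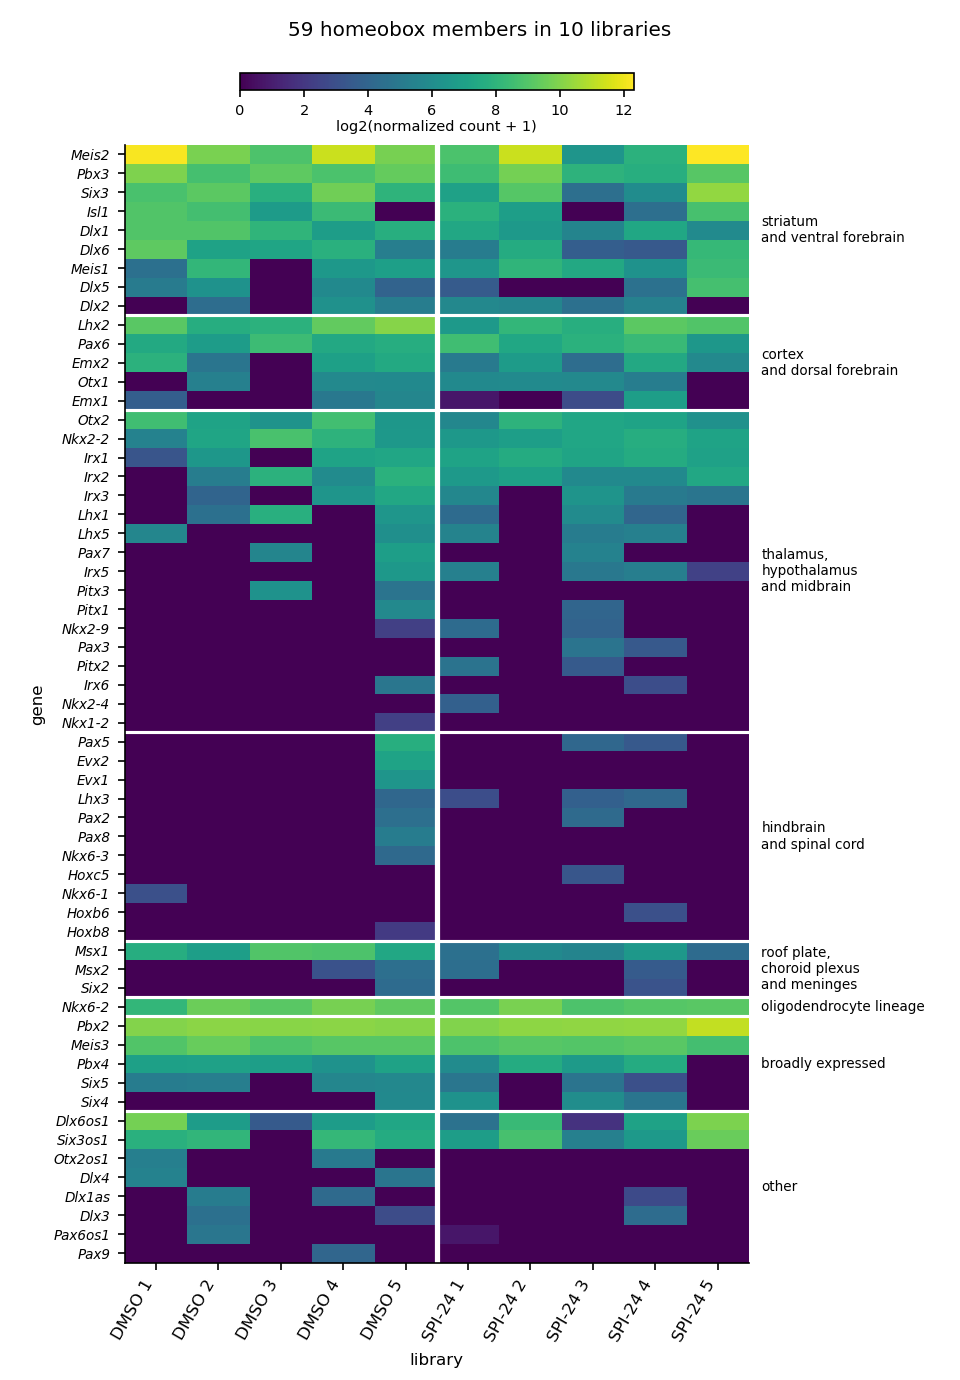
Level of 59 of the members (rows, grouped by the region they are known for) in each of the 10 libraries (columns), as the log2 of the normalized count plus 1. Pbx2, Meis3 and Nkx6-2 were high in every library, and the hindbrain and spinal cord rows were filled most often in DMSO replicate 5.

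Of the 63 members, 37 reached a mean of 10 normalized counts and could be tested, and 26 did not. In the trended limma fit to log2(normalized count + 1), with Benjamini-Hochberg adjustment over 15871 genes, no member was called at an adjusted p of 0.05, and 0 genes were called in all (0%). At an unadjusted p under 0.05, 2 of the 37 members (5.41%) were lower under SPI-24, Msx1 and Dlx1, against 1.27% of all genes tested, and 0 were higher, against 0.958%. Every SPI-24 library lay below every DMSO library for 1 member, Msx1, against 0.321% of all genes, and above for 0, against 0.195%. The fitted difference was above 0 for 15 members and below 0 for 22, against 7966 and 7905 of all genes tested. Its median was -0.15, against 0.00 over all genes. Evx2 and Pitx3, at 0 in every SPI-24 library, passed the filter through DMSO alone, so their place among the 22 was fixed by it. DESeq2 without outlier handling called Evx2 and Msx1 (background 0.101% lower), and DESeq2 with default settings on every gene of the table called Msx1 (0.0236% lower), while DESeq2 with default settings on the same 15871 genes, edgeR and limma-voom called no member.

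The members varied more between libraries of 1 group than most genes did. On the log2 scale, the median range within DMSO was 5.84 for the tested members and 1.68 for all genes tested. Reads in all 10 libraries were found for 15 of the 37 members (40.5%) and for 64.8% of all genes. Among genes with reads in all 10 libraries, the median range within DMSO was 2.05 for members and 1.14 for all. For 34 of the 37 members the range within DMSO was larger than the difference between the groups, as it was for 96.5% of all genes. These figures are given as a description.

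**Figure D3:**
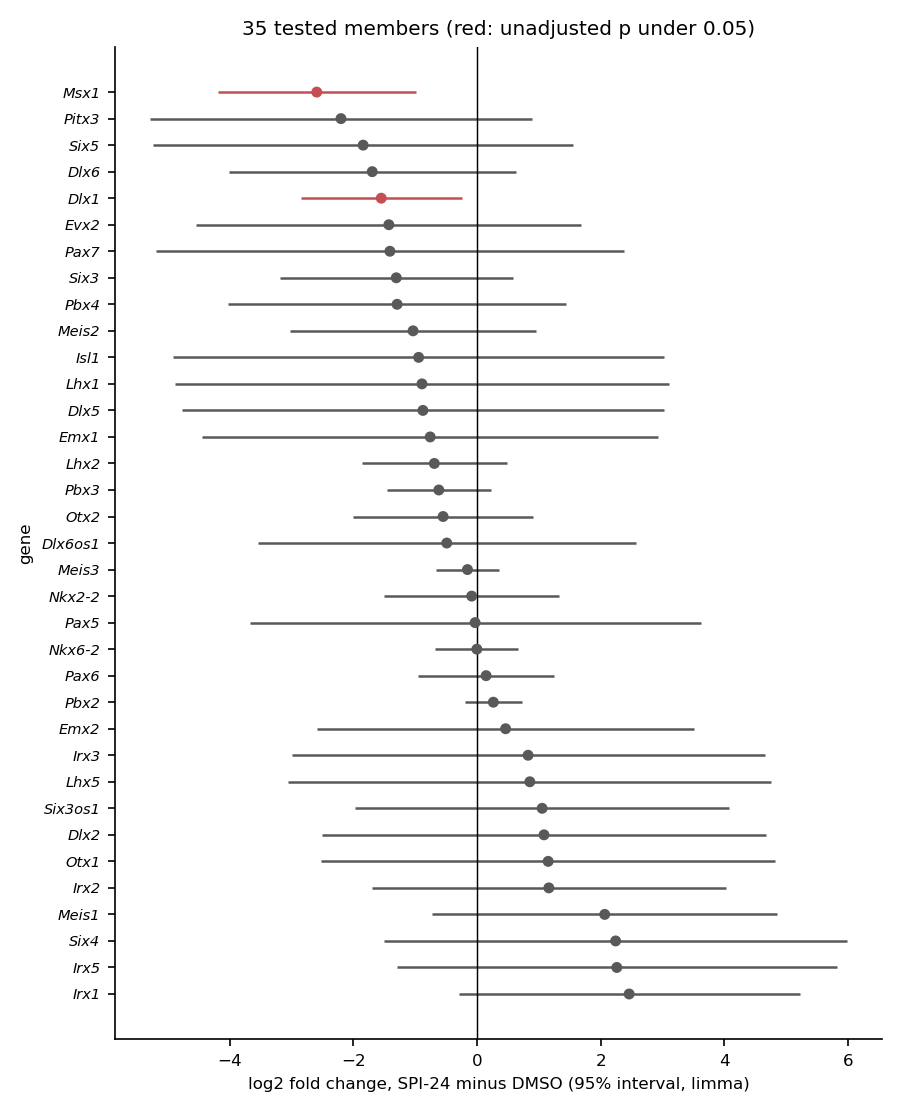
Log2 fold change of 35 of the tested members (SPI-24 minus DMSO, point) with its 95% interval from limma (line). Msx1 at -2.59 and Dlx1 at -1.55 were those with an interval that left out 0 (red), and the values of Pitx3 and Evx2, listed at 0 in every SPI-24 library, depend on the pseudocount of 1.

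Msx1, a transcriptional repressor known in the roof plate, had the largest fitted difference among the 37 tested members. Its normalized count was 205, 118, 489, 471 and 162 in DMSO replicates 1 to 5 and 22.2, 55.3, 46.5, 93.7 and 18.6 in SPI-24 replicates 1 to 5. Every DMSO library was above every SPI-24 library, with DMSO replicates 3 and 4 the highest. The means were 289 ± 177 (SD, n = 5) under DMSO and 47.3 ± 30.3 (SD, n = 5) under SPI-24, a log2 fold change of -2.59 (SE 0.75, 95% interval -4.19 to -0.99). In limma its unadjusted p was 0.0036, the 7th smallest of 15871, and its adjusted p was 0.999. By DESeq2 on recovered reads its adjusted p was 0.083 with default settings, 0.025 without outlier handling and 0.039 on every gene of the table. The count rested on few reads in places, 9 in SPI-24 replicate 5, for which an exact Poisson interval allows 8.52 to 35.4 normalized counts, and 20 in SPI-24 replicate 2, with 33.8 to 85.5. Neither interval reached the lowest DMSO value of 118. The intervals of the closest pair did overlap, SPI-24 replicate 4 at 93.7 (78.4 to 111) and DMSO replicate 2 at 118 (101 to 136). The separation of the groups thus holds for the counts as listed, not for every interval.

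Choroid plexus and ependymal markers were measured beside it. The choroid plexus level was 10.95, 7.29, 6.51, 10.27 and 3.73 in DMSO replicates 1 to 5 and 7.85, 7.73, 4.55, 4.59 and 9.06 in SPI-24 replicates 1 to 5. With that level as a covariate the log2 fold change of Msx1 was -2.64. The ependymal level, over 6 genes, was 2.34 to 8.13 under DMSO and 3.06 to 5.55 under SPI-24, and 4 of its 6 genes were lower under SPI-24. DMSO replicate 3 held the highest Msx1 count and the lowest ependymal level, and SPI-24 replicate 5 held the lowest Msx1 count and the highest choroid plexus level of its group. DMSO replicates 4 and 1 came next in Msx1 count (471 and 205). They held the highest choroid plexus levels and the highest ependymal levels, the latter 8.03 and 8.13. The part of the ependymal genes in the result was not tested. Leaving out any 1 library gave log2 fold changes of -2.89 to -2.33, the 7 libraries above 11 M reads gave -2.14, and in all 26 alternatives Msx1 was lower under SPI-24. Otx2, also of this group, is described with the thalamic genes. Msx2 and Six2 did not pass the filter and reached at most 21.4 normalized counts, in DMSO replicate 5.

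Msx1 lies on chromosome 5 (GRCm38, 37820485 to 37824583, minus strand), and its promoter is shown because it is the member with the clearest difference, beside the Evx pair that 1 library set apart. The 250 bases before the RefSeq start of each gene are given 5′ to 3′ on the gene's strand (build GRCm38.p6), at chr5:37824586-37824835, chr6:52313248-52313497 and chr2:74659558-74659807, with the motifs named after them in capitals.
Msx1: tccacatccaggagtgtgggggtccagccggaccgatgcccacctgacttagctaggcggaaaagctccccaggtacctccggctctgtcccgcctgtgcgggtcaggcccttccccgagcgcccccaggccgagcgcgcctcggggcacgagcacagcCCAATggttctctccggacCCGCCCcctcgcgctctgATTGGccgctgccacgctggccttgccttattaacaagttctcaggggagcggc
Evx1: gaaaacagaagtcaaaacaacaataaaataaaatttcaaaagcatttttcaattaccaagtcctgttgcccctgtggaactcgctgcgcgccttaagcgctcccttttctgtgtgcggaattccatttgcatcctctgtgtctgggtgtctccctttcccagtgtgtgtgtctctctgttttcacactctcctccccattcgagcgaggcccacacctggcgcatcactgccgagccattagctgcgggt
Evx2: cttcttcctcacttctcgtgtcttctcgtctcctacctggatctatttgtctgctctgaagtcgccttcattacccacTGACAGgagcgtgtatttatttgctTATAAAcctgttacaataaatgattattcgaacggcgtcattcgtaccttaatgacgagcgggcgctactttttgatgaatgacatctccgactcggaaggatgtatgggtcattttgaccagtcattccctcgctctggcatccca
The motifs searched on both strands were TAATTA (a homeodomain core), TGACAG (a Meis core), GGGCGG (the GC box), CCAAT and TATAAA. The Msx1 window had a CCAAT box 91 bases and another 54 bases before the start, with a GC box at 72, and it was rich in G and C (68.0%, 20 CpG sites). The Evx1 window had none of the 5 and 49.6% G and C, and part of it is also an exon of the antisense gene Evx1os. The Evx2 window had a Meis core 172 bases and a TATAAA 147 bases before the start.

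RefSeq promoters, each from 250 bases before to 50 after the start, were given for 41 of the 63 members. Of these, 5 (12.2%) held TAATTA against 5.31% of 27025 promoters, 24 (58.5%) held a GC box against 35.9%, 20 (48.8%) held CCAAT against 37.9%, 5 (12.2%) held TATAAA against 14.2%, and 7 (17.1%) held TGACAG against 19.3%. The median content of G and C was 61.0% for members and 52.7% for all. With at least 50% G and C and a CpG ratio of observed to expected of at least 0.6, 27 (65.9%) of the member promoters were rich in CpG, against 34.1% of all. A match is a run of letters and was not tested as a binding site.

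The 10 genes of the striatum and ventral forebrain were all tested. Under SPI-24, 3 had higher and 7 had lower values, the median difference was -0.91 on the log2 scale against 0.00 over all genes, and 1, Dlx1, had an unadjusted p under 0.05. Meis2, a cofactor expressed in striatal projection neurons, had 4603, 897, 461, 2564 and 871 normalized counts in DMSO replicates 1 to 5 and 454, 2568, 83.0, 241 and 5025 in SPI-24 replicates 1 to 5. Its 4 highest libraries were the 4 with the highest medium spiny neuron level (replicates 1 and 4 of DMSO, 2 and 5 of SPI-24), and the groups overlapped throughout. The lowest and highest SPI-24 libraries differed by 5.90 on the log2 scale, and the group difference was -1.03 (SE 0.93).

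**Figure D4:**
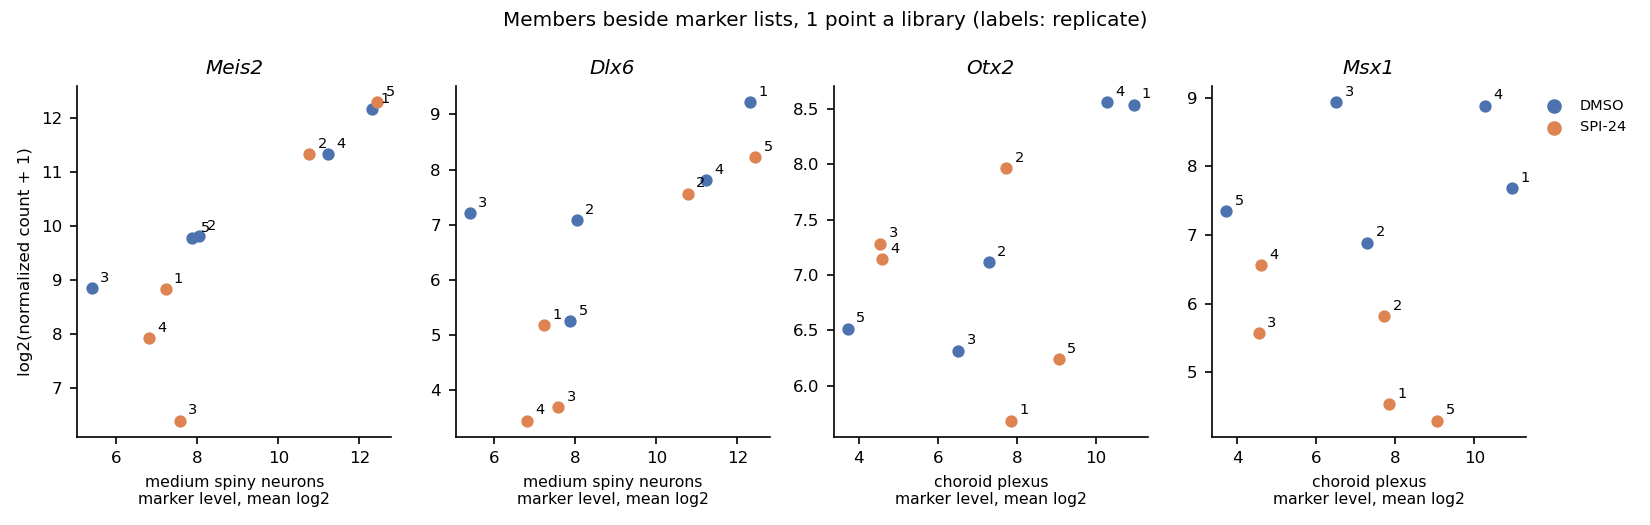
Level of 4 members, as the log2 of the normalized count plus 1, against the mean log2 level of a marker list in the same library (1 point a library, numbers give the replicate). The 4 highest libraries of Meis2 and of Dlx6 were those with a medium spiny neuron level of 10.77 to 12.44, and Otx2 was highest in DMSO replicates 1 and 4, which had the highest choroid plexus levels of 10.95 and 10.27.

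Dlx1, a gene of ventral forebrain progenitors that interneurons keep in the adult, had 497, 495, 267, 112 and 209 normalized counts in DMSO replicates 1 to 5 and 165, 99.6, 45.9, 158 and 57.9 in SPI-24 replicates 1 to 5. DMSO replicate 4 lay among the SPI-24 libraries, and the other 4 DMSO libraries lay above them all. The difference was -1.55 on the log2 scale (SE 0.61, 95% interval -2.85 to -0.24, unadjusted p = 0.023 and adjusted p = 0.999 in limma). It lost an unadjusted p under 0.05 without DMSO replicate 1 (-1.33), DMSO replicate 2 (-1.34) or SPI-24 replicate 3 (-1.30), in the 7 libraries above 11 M reads (-1.37) and in limma-voom (-1.26). Of 8 interneuron markers, 7 were lower under SPI-24, their level was 7.0 to 8.72 under DMSO and 5.98 to 8.27 under SPI-24, and their part in the Dlx1 result was not tested. Dlx2, its neighbour on chromosome 2, stood at 10.2 normalized counts per kb against 39.0 for Dlx1. It had 0, 20.4, 0, 72.6 and 36.3 under DMSO and 51.7, 47.0, 22.6, 41.2 and 0 under SPI-24, with a difference of 1.08 (SE 1.68).

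The Dlx5 and Dlx6 pair on chromosome 6 gave another order. Dlx6 had 597, 135, 147, 224 and 37.1 normalized counts in DMSO replicates 1 to 5 and 35.3, 188, 11.9, 9.94 and 298 in SPI-24 replicates 1 to 5. As for Meis2, its 4 highest libraries were those with the highest medium spiny neuron level, and its log2 fold change was -1.69 (SE 1.09, adjusted p = 0.999 in limma), -1.10 to -1.08 in DESeq2 and edgeR and -3.23 in the 7 libraries above 11 M reads. Those 7 leave out DMSO replicate 3 and SPI-24 replicates 2 and 5. Their medium spiny neuron level was 7.88 to 12.31 under DMSO and 6.81 to 7.57 under SPI-24. Dlx6os1, a long non-coding RNA whose gene spans Dlx6 on the opposite strand, had 851, 110, 10.3, 112 and 156 under DMSO and 23.5, 318, 2.51, 133 and 937 under SPI-24. DMSO replicate 1 and SPI-24 replicate 5 were highest for both genes. Dlx5 reached 401 normalized counts in SPI-24 replicate 5 and 0 to 75.5 elsewhere. The strand setting of the counting was not stated, so Dlx6 reads and those of Dlx6os1 cannot be told apart with certainty.

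Six3, needed in the mouse for the D2 class of medium spiny neurons, had 430.5, 594, 215, 793 and 253 normalized counts in DMSO replicates 1 to 5 and 131, 528, 21.4, 61.1 and 1256 in SPI-24 replicates 1 to 5. SPI-24 held both the highest and the 3 lowest libraries. The log2 fold change was -1.30 (SE 0.88), ranging from -2.04 to -0.58 when 1 library was left out. It was -0.25 to -0.20 in DESeq2 and edgeR, and -3.07 in the 7 libraries above 11 M reads. Among those 7, every SPI-24 library had a lower medium spiny neuron level than every DMSO library. Six3os1, which overlaps Six3 on chromosome 17 from the other strand, had 225, 269, 0, 294 and 190 under DMSO and 113, 421, 39.6, 95.1 and 706 under SPI-24. It too was highest in SPI-24 replicate 5. Its log2 fold change was 1.05 (SE 1.42), of opposite sign to that of Six3, and neither passed the test.

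Pbx3, a cofactor of striatal neurons, had 981, 409, 602, 442 and 662 normalized counts under DMSO and 350.5, 836, 250.2, 206 and 550.5 under SPI-24. The 3 lowest libraries were SPI-24 replicates 1, 3 and 4, and the log2 fold change was -0.62 (SE 0.39, unadjusted p = 0.14 in limma). Isl1, which sets up the direct-pathway striatal neurons and also marks cholinergic cells, had 502, 387, 106, 328 and 0 under DMSO and 233, 116, 0, 21.3 and 426 under SPI-24. Both groups held a library at 0, DMSO replicate 5 and SPI-24 replicate 3. Meis1 had 22.6, 283, 0, 92.8 and 120 under DMSO and 86.3, 260.1, 169, 75.3 and 331 under SPI-24, a difference of 2.07 (SE 1.31) that was 0.76 without DMSO replicate 3, 0.77 to 0.82 in DESeq2 and edgeR and 0.16 in the 7 libraries above 11 M reads.

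**Figure D5:**
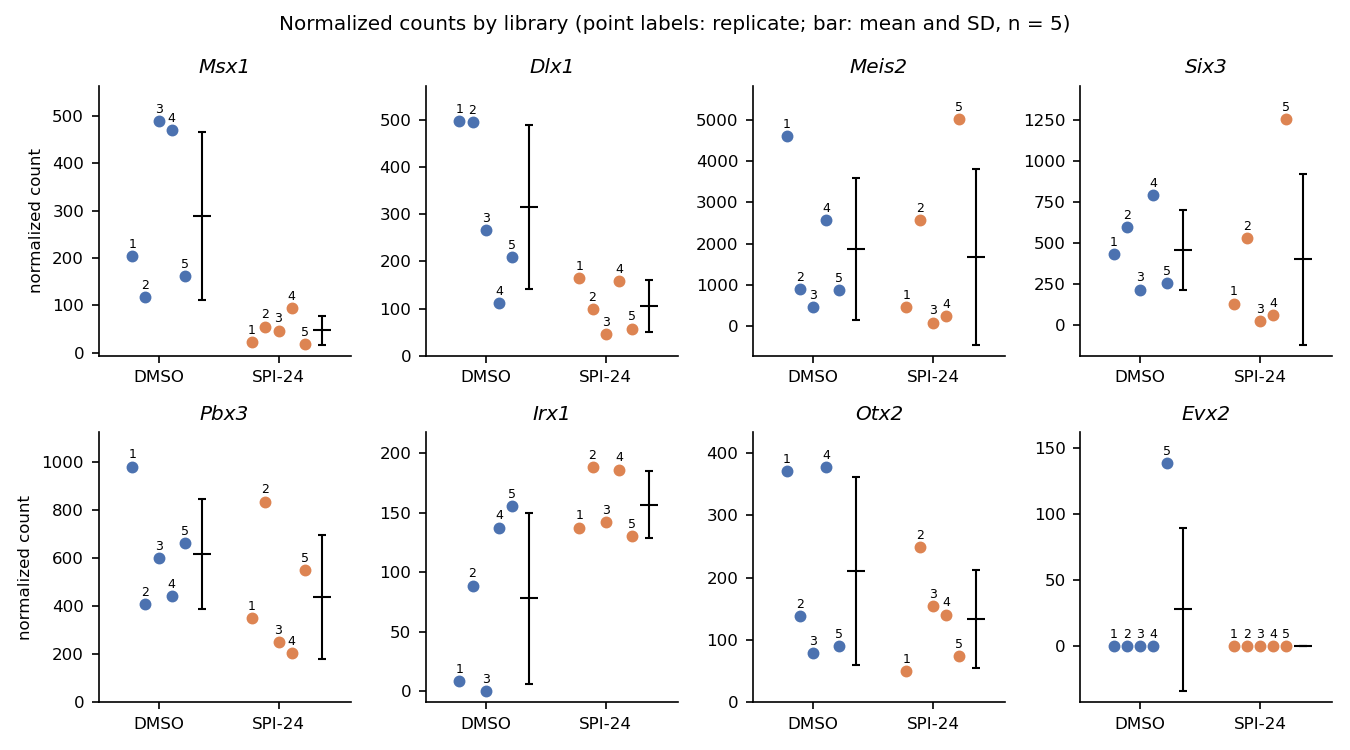
Normalized counts of 8 members by library (points, labelled by replicate number) with the mean and SD of each group (bars, n = 5). Msx1 shows no overlap between the groups, Dlx1 overlaps through DMSO replicate 4, and Evx2 is above 0 in DMSO replicate 5 alone.

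Of the 5 genes of the cortex and dorsal forebrain, 3 had higher and 2 had lower values under SPI-24 (median 0.15 on the log2 scale), and none had an unadjusted p under 0.05. Lhx2, a selector gene of the cortex, had 574, 200.3, 236, 647 and 1061 normalized counts in DMSO replicates 1 to 5 and 101, 282, 207, 578 and 499 in SPI-24 replicates 1 to 5, a difference of -0.69 (SE 0.55). DMSO replicate 5 was the highest, and the other libraries of the groups overlapped. Emx2 had 234, 26.3, 0, 126 and 176 under DMSO and 32.0, 108, 20.1, 171 and 53.8 under SPI-24, and Emx1 was at most 117, in SPI-24 replicate 4. That library and DMSO replicate 5 had the highest levels of cortical neuron markers, 9.14 and 8.74. DMSO replicate 1, the highest for Emx2, had the lowest level of these markers, 5.68. Pax6, a gene of radial glia that some astrocytes keep, had 175, 112, 345, 172 and 202 under DMSO and 365, 160.5, 229, 320.2 and 91.1 under SPI-24. Its difference of 0.15 (SE 0.52) was smaller than the range of 1.62 within DMSO. Otx1 had reads in 7 of 10 libraries, 36.2 to 58.1 normalized counts where present, and a difference of 1.15 (SE 1.72).

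The group of the thalamus, hypothalamus and midbrain held 17 members, of which 10 were tested, 5 of them higher and 5 lower, with a median of 0.37. Irx1, a gene of the caudal diencephalon and midbrain, had 8.32, 88.7, 0, 137 and 155 normalized counts in DMSO replicates 1 to 5 and 137, 188, 142, 186 and 130.4 in SPI-24 replicates 1 to 5. The SPI-24 libraries lay close together, while DMSO replicates 1 and 3 were at or near 0. The log2 fold change of 2.46 (SE 1.29, unadjusted p = 0.076 and adjusted p = 0.999 in limma) was 1.26 without DMSO replicate 3 and 0.97 to 0.99 in DESeq2 and edgeR. Of 10 markers of thalamic neurons, 9 were higher under SPI-24, and their level was 6.24 in DMSO replicate 1, 8.57 to 11.20 in the other DMSO libraries and 8.32 to 11.34 under SPI-24. Their part in the Irx1 result was not tested.

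The other tested Irx genes had fitted differences above 0 that did not pass the test, 1.16 (SE 1.34) for Irx2, 0.83 (SE 1.79) for Irx3 and 2.26 (SE 1.67) for Irx5, and their highest libraries were DMSO libraries. Irx2, also on chromosome 13, had 0, 36.1, 236, 59.1 and 229 under DMSO and 97.4, 127, 55.3, 56.8 and 166 under SPI-24, so that DMSO replicate 3 was highest for Irx2 and at 0 for Irx1. Irx5 had reads under DMSO in replicate 5 alone, with 92.7 normalized counts, and 39.9, 0, 28.9, 36.9 and 4.14 in SPI-24 replicates 1 to 5. The fit moved with the setting, to 3.57 without DMSO replicate 5 and to 0.23 to 0.24 in DESeq2 and edgeR. Irx3, its neighbour on chromosome 8, was also highest in that library, at 167, against 0 to 83.2 in the others.

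Otx2, a head gene kept by choroid plexus, thalamus and midbrain, had 371, 138, 78.6, 377 and 90.5 normalized counts in DMSO replicates 1 to 5 and 50.4, 249, 155, 141 and 74.5 in SPI-24 replicates 1 to 5. The highest were DMSO replicates 1 and 4, where the choroid plexus gene Ttr stood at 181941 and 92837, and the difference between the groups was -0.55 (SE 0.68). The paired antisense transcript Otx2os1 had reads in those same libraries alone, 38.1 and 31.2 normalized counts. Nkx2-2, a gene of the ventral neural tube and of oligodendrocyte precursors, had 42.8, 149, 441, 249 and 93.7 under DMSO and 94.2, 119, 155, 203 and 141 under SPI-24, a difference of -0.08 (SE 0.66). Pitx3, known in midbrain dopamine neurons, was found in DMSO replicates 3 (75.2) and 5 (25.8) and was at 0 in the other 8 libraries. Against a floor of 3 reads in each SPI-24 library its DMSO mean was at least 4.93-fold higher, with an unadjusted p of 0.15 in limma. Without DMSO replicate 3 that mean was 6.45. Lhx1 was highest in DMSO replicate 3 (215) and DMSO replicate 5 (86.1), and Pax7 in DMSO replicate 5 (118).

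The 12 genes of the hindbrain and spinal cord had reads in few libraries, 1 to 4 each. Evx2, which lies beside the Hoxd cluster on chromosome 2 and is known in spinal interneurons, had 138 normalized counts (381 reads) in DMSO replicate 5 and 0 reads in the other 9 libraries. Evx1, beside the Hoxa cluster on chromosome 6, had 85.4 (235 reads) in the same library and 0 in the other 9. These are the genes whose promoters are shown above. Against a floor of 3 reads in each SPI-24 library, the DMSO mean was at least 6.76-fold higher for Evx2 and at least 4.17-fold higher for Evx1. Without DMSO replicate 5 both genes were at 0 in both groups and no fold could be given. In limma Evx2 had an unadjusted p of 0.34, while DESeq2 without outlier handling gave it an adjusted p of 5.95e-10. Evx1 did not pass the filter.

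DMSO replicate 5 also held 209 normalized counts of Pax5, a gene of the midbrain-hindbrain boundary, which was 88.8% of all its counts, beside 16.3 and 9.94 in replicates 3 and 4 of SPI-24. Pax8 (34.9), Nkx6-3 (17.4) and Hoxb8 (3.27) had reads in DMSO replicate 5 alone, and Pax2 (21.8) and Lhx3 (16.0) had reads in no other DMSO library. Under SPI-24, Pax2 had 18.2 in replicate 3, and Lhx3 had 6.54, 12.6 and 17.0 in replicates 1, 3 and 4. The hindbrain marker level, over 7 genes, was 6.33 in that library and 2.44 to 4.64 in the others. Of that list, the glycine transporter gene Slc6a5 stood at 108, Gata3 at 101 and Glra1 at 72.3, each the highest of the 10 libraries. Others went the other way. Chat, at 38.5, was the lowest of the DMSO libraries, and Nefh, at 4088, lay below DMSO replicates 2, 3 and 4 (4662, 5332 and 5241). The level of meninges and fibroblast markers was also highest in DMSO replicate 5, at 7.81 against 1.78 to 6.53 in the others. The library was also the deepest, and after thinning to the shallowest depth it still had 50.8 of its 52 members. Over all genes it listed the most as well, 18148, or 17556 after thinning. The part of the hindbrain genes in these values was not tested.

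Hox genes themselves were nearly absent from the table. Of 39 coding Hox names in the annotation, 4 were listed, and none passed the filter. Hoxb6 had 7.10 normalized counts in SPI-24 replicate 4, Hoxc5 8.80 in SPI-24 replicate 3 and Hoxb8 3.27 in DMSO replicate 5, each in that library alone. Both groups thus had reads of Hox genes in single libraries, and no comparison was possible.

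Among the broadly expressed members, Pbx2, Meis3 and Pbx4 were even under DMSO. Pbx2 had 1023, 1155, 1121, 1157 and 1058 normalized counts in DMSO replicates 1 to 5 and 994, 1165, 1205, 1251 and 2334 in SPI-24 replicates 1 to 5. SPI-24 replicate 5 stood far above the rest, and the group difference was 0.27 (SE 0.22). Meis3 had 550.5 ± 89.7 (SD, n = 5) under DMSO and 494 ± 69.5 (SD, n = 5) under SPI-24, and its 95% interval on the log2 scale was -0.66 to 0.35. Pbx4 had 75.5 to 133 under DMSO and 59.5, 191, 104, 188 and 0 in SPI-24 replicates 1 to 5. Six5 had reads in 4 DMSO and 3 SPI-24 libraries with at most 51.6. Six4 was above 0 under DMSO in replicate 5 alone, at 56.3, and had 75.2, 0, 64.75, 26.3 and 0 in SPI-24 replicates 1 to 5. Nkx6-2, a gene of myelinating oligodendrocytes, had 281, 739, 561, 880 and 635 under DMSO and 507, 896, 466, 535 and 571 under SPI-24. Its difference was 0.00 (SE 0.31), with a 95% interval of -0.67 to 0.67, so differences of up to that size are not excluded by these libraries.

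Lists of related genes were counted in the same test. Of 64 other regional transcription factors, 57 were in the table and 39 tested. They were higher under SPI-24 in 30 cases and lower in 9, with a median of 0.59, none had an unadjusted p under 0.05, and their median range within DMSO was 6.06. Zfhx3, a zinc finger homeobox gene, had the smallest p of the list, with 214, 323, 352, 142 and 259 normalized counts in DMSO replicates 1 to 5, 436, 459, 707, 371 and 250.4 in SPI-24 replicates 1 to 5 and a difference of 0.77 (SE 0.38, unadjusted p = 0.060 in limma). Shox2, a thalamic gene of this list, was at 0 in DMSO replicate 1, at 494 and 534 in replicate 5 of DMSO and of SPI-24, and at 2108 to 3291 in the other 7 libraries.

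Cofactors of homeodomain proteins, such as the Ldb, Lmo, Eya and Tle families, had differences in both directions. Of 29, 26 were tested, 15 higher and 11 lower, with a median of 0.09 and none at an unadjusted p under 0.05. Single differences were large and imprecise, such as 2.43 (SE 1.51) for Eya4 and -2.36 (SE 1.49) for Tgif1, so evenness is not shown. Among 19 chromatin regulators of the Hox clusters, the Polycomb and Trithorax genes, 8 were higher and 11 lower, with a median of -0.11 and again none at that level. Suz12, a core subunit of Polycomb complex PRC2, had the smallest p, with 722, 633, 1039, 766 and 810 normalized counts in DMSO replicates 1 to 5 and 813, 376, 750, 607 and 381 in SPI-24 replicates 1 to 5. The 2 lowest values were those of the shallow SPI-24 libraries, and the difference was -0.49 (SE 0.27, unadjusted p = 0.089 in limma).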

How the data were processed

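RNA-seq libraries of polyadenylated RNA from striatal punches of 10 BACHD mice (5 DMSO, 5 SPI-24) were analysed. The labels do not give the sex of the mice, and the replicate numbers of the 2 groups do not mark a shared litter or day. The authors prepared stranded libraries, sequenced single reads of 50 bases, used cutadapt for trimming and STAR for alignment to GRCm38, dropped reads under 30 bases or mapped to several places, and counted per gene with HTSeq. Tool versions were not stated. The deposited signal of a gene is its reads after scaling of each library by 1 size factor from DESeq2. The authors' own fold changes and p-values in the same table were not used, and 0 columns of sample values were left out. Dividing by the value of 1 read gave whole reads (within 0.1) for 100% of 154521 values above 0. Discarded multi-mapped reads lower the counts of genes with close copies.

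The test was limma 3.58.1 (R 4.3.3), with a trend, on log2(normalized count + 1), for genes with a mean of at least 10, without covariates. Fold changes are differences of mean log2 values, and for low or uneven genes they can lie below or above the ratio of mean counts that DESeq2 and edgeR fit. Calls needed an adjusted p (Benjamini-Hochberg) under 0.05. Alternatives were DESeq2 1.42.0, edgeR 4.0.16 and limma-voom on recovered reads, limma without trend, other filters and pseudocounts, the replicate block, covariates for sex (Ddx3y above 100), medium spiny neuron and choroid plexus levels, the 7 libraries above 11 M reads and each library left out. DESeq2 on every gene was added after seeing the data. The tests were checked on simulated counts.

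Values by library are given for the 10 tested members with the smallest p, the 4 highest tested members of each regional group, and Evx1, Evx2 and Msx1, which the study lists among genes it picked on these libraries, so their direction is no independent evidence. Some members that this rule takes are not reported here. Dlx2, Dlx5, Isl1, Emx1, Irx3, Six4, Lhx1, Pax7, Otx2os1, Shox2 and the sparse hindbrain genes were named after their values were seen. The members, lists and tests were chosen with earlier results of these data known. Annotation is GENCODE M21 on GRCm38, in which 21195 of 21230 identifiers were found, and lengths per kb are unions of exons. Limits for genes at 0 take 3 reads per library, and they and Poisson intervals (95%) cover counting error only. P-values measure the spread between these libraries, in which mouse, placement of the punch and depth cannot be told apart.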

Additional observations from a re-analysis of the deposited data

Results flagged for a closer look

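Among 29 members, 58 groups of 5 libraries were examined for a single library that stood apart by Dixon's ratio (critical value 0.71), and 7 were found. The ratio flags about 1 in 20 groups by chance for normally distributed values, which these counts were not shown to be. It is 1 by construction where the other 4 libraries are at 0, as for the first 4 named here, so no chance rate applies to those. DMSO replicate 5 stood above 4 libraries at 0 for Evx1 (85.4 normalized counts), Evx2 (138), Irx5 (92.7) and Pax5 (209). DMSO replicate 1 was high for Dlx6os1, at 851 against 156 in the next library. SPI-24 replicate 5 was high for Pbx2, at 2334 against 1251. SPI-24 replicate 2 was high for Nkx6-2, at 896 against 571. These are values only, and their cause was not tested.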

How the results depend on the processing

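Under 26 alternatives the log2 fold change of the 11 tested members with the smallest p or on the study's list kept its sign wherever it could be fitted and was not 0. Msx1 stayed lower in all 26 (-2.89 to -2.14, lowest adjusted p 0.025) and was called in 2. The count of members called, 0, became 2 with DESeq2 without outlier handling (Evx2 and Msx1) and 1 with DESeq2 on every gene (Msx1), and stayed 0 in the others. The count of all genes called, 0, became 3 with default DESeq2, 17 without outlier handling (16 lower) and 5 on every gene. The count of members at an unadjusted p under 0.05, 2, became 5 with DESeq2 on every gene, 4 with DESeq2 without outlier handling and with both edgeR fits, 5 with limma-voom, 6 with sex as a covariate and 10 in the 7 libraries above 11 M reads (3 higher, 7 lower), and 1 to 4 with 1 library left out: it was 1, Msx1, without DMSO replicate 1, DMSO replicate 2 or SPI-24 replicate 3, and 4 without DMSO replicate 5, when Irx1 and Irx5 were added as higher. Samples with the same replicate number did not deviate together (correlations -0.13 to -0.01, none best with its own number), and with the replicate block 2 members were at that level and 0 genes were called. Using the longest transcript for length moved 6 of the levels per kb, among them Meis2 (323) and Meis3 (271), by more than their SD. The shallow libraries limit genes under about 10 normalized counts, since 3 reads are 10.3 normalized counts in DMSO replicate 3. In the 7 libraries above 11 M reads the medium spiny neuron level was 7.88 to 12.31 under DMSO and 6.81 to 7.57 under SPI-24. In that setting treatment and medium spiny neuron level cannot be told apart. The causes of the shifts between settings were not tested.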
